A study of Macaca mulatta with 8 samples.

Results

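Intraflagellar transport (IFT) and BBSome genes were followed through the cell classes and treated areas of the macaque retina. Members were all gene symbols in the deposited feature lists beginning with IFT or BBS and a digit, plus ARL6, BBIP1, TTC8, TTC21B, WDR19, WDR35, DYNC2H1, KIF3A, KIF3B and KIF17 where present. This gave 27 genes of 26533 features. They comprised 11 IFT-B subunits, 6 IFT-A subunits, 3 motor subunits, 5 BBSome subunits, the BBSome-recruiting GTPase ARL6 and the chaperonin-like BBS10. KIF17 and BBS1 were not analysed here.

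The 8 libraries of dissociated retina from 2 male rhesus macaques were made with a droplet kit that reads the 5′ end of transcripts. NHP1, aged 5 years, gave 1 area of each eye labelled uninjected and had received AAV2-CAG-hRPE65, driven by a ubiquitous promoter, in both eyes. NHP2, aged 6 years, gave 3 areas of each eye: uninjected retina, a subretinal bleb (the injected patch) of AAV8-GRK1-hRPGR and another of AAV8-GRK1-mScarlet, in which the GRK1 promoter drives expression in photoreceptors, hRPGR is the human ciliary gene RPGR and mScarlet a red fluorescent reporter. Triamcinolone was given to every eye and adalimumab to left eyes only, so the drug and the eye cannot be told apart. The 6 NHP2 libraries came from 1 animal, and p-values therefore measure the spread between areas and eyes rather than between animals.

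The outer segment of a rod or cone is a modified primary cilium, built and renewed through a narrow connecting cilium. IFT-B trains with kinesin-2 carry cargo towards the ciliary tip, IFT-A trains with cytoplasmic dynein-2 carry it back, and the BBSome links membrane proteins to these trains for removal from the cilium. Inherited defects of many of these genes cause retinal degeneration, alone or with kidney, skeletal or limb disease.

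Counts are of unique molecular identifiers (UMIs), summed over the cells of a class in a library and scaled to the total UMIs of that class as CPM. They are not scaled to gene length, and a level of 1 gene is not compared here with that of another. Libraries held 90634306 to 146519011 UMIs in 678289 to 717865 barcodes. After filtering, 83192 cells remained, of which 3570 to 6046 a library were rod-like, 114 to 424 cone-like, 483 to 1037 bipolar-like and 208 to 729 Müller glia-like, each named from marker genes. Rod markers summed to 42300 CPM in rod-like cells, 1627 CPM in cone-like, 2464 CPM in bipolar-like and 3768 CPM in Müller glia-like cells, against 17624 CPM in free RNA (barcodes of 100 to 1000 UMIs). Of the distinct cell barcodes 5.39% occurred in more than 1 library before doublet removal, and 4.88% after it. How many would be shared by chance was not worked out. Transgene UMIs were also found in 2 libraries labelled uninjected. The right uninjected library of NHP2 held 5106 UMIs of the hRPGR transgene in its rod-like cells, or 157 CPM. The right and left hRPGR blebs had 3365 and 1219 CPM. The left NHP1 library held 18048 UMIs of the RPE65 transgene in its rod-like cells alone.

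The members together were highest in photoreceptors. Their summed level was 2696 ± 116 CPM in rod-like cells (SD, n = 8 libraries) and 2597 ± 295 CPM in cone-like cells, 2 values within each other's spread. It was 1605.5 ± 96.9 CPM in bipolar-like cells and 1160 ± 165 CPM in Müller glia-like cells. The 8 rod-like sums, 2521.5 to 2839 CPM, lay above all 8 bipolar-like sums. Free RNA held 1260 ± 402 CPM of member transcripts, below the photoreceptor sums and overlapping the bipolar-like and Müller glia-like ones. What free RNA contributed to the class levels was not tested.

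**Figure D1:**
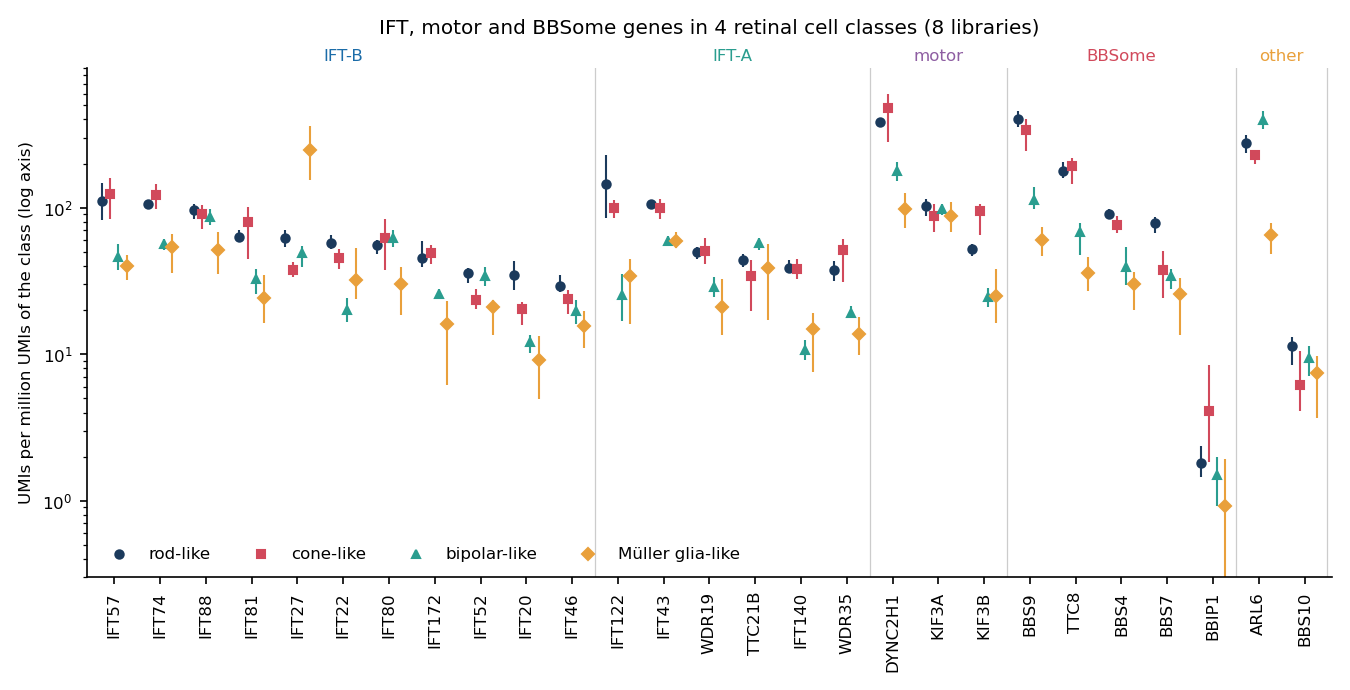
Level of each member (CPM, log axis) in rod-like, cone-like, bipolar-like and Müller glia-like cells. Markers are means of 8 libraries and lines run from the lowest to the highest library, to the foot of the axis where a library held no UMI. Most members lie highest in rod-like or cone-like cells, with ARL6 and TTC21B among those highest in bipolar-like and IFT27 highest in Müller glia-like cells.

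Rod-like cells were compared with bipolar-like cells of the same 8 libraries, to ask which members set photoreceptors apart from the neurons they contact. After library blocking, 23 of the 27 members were higher in rod-like cells, 1 was lower and 3 were not called (edgeR quasi-likelihood test, Benjamini-Hochberg adjusted p under 0.05 over 14521 genes). Of all genes tested 73.4% were called, 37.8% higher and 35.6% lower. The members' median log2 difference was 1.18, against 0.03 over all genes tested. In 18 members (66.7%) the 8 rod-like CPM values lay wholly above the 8 bipolar-like values, as they did in 10.5% of the 23454 genes with a UMI in any of the 4 classes. That base includes genes below the low-count filter, which all members passed, so the shares are not on equal terms. In ARL6 and TTC21B the rod-like values lay wholly below, as in 21.1% of those 23454 genes. Differences are on the scale of the trimmed mean of M-values (TMM), which here lay 0.27 above the log2 ratio of plain CPM (median over the members). On plain CPM 24 rather than 25 members had a positive difference, with IFT80 changing sign.

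Among the IFT-B subunits, 10 of 11 rose in rod-like cells, with a median log2 difference of 1.07. IFT57, a peripheral subunit of the complex, ranged from 82.7 to 146.4 CPM in rod-like cells (median 98.7) and from 37.7 to 56.3 CPM in bipolar-like cells (median 47.5). No library of the rod-like set fell within the bipolar-like range, and the log2 difference was 1.5 ± 0.11 (SE). IFT74, a coiled-coil core subunit, varied little between libraries in rod-like cells, at 106.7 ± 3.2 CPM over the 8 libraries against 56.2 ± 3.4 CPM in bipolar-like cells (log2 1.18 ± 0.08, adjusted p = 2.68e-13, edgeR). IFT22, a small GTPase of the complex, and IFT20, which also serves at the Golgi, differed most, by 1.79 ± 0.13 and 1.75 ± 0.13. IFT81 differed by 1.2 ± 0.11, IFT172 by 1.07 ± 0.11 and IFT46 by 0.84 ± 0.09, while IFT52 differed by 0.34 ± 0.07. IFT172 stood at 45.3 ± 6.3 against 25.7 ± 1.5 CPM. IFT88, the subunit disrupted in a classic mouse cilia mutant, differed by only 0.42 ± 0.07, with 96.2 ± 7.9 and 85.7 ± 8.4 CPM and overlapping libraries. IFT80, the subunit affected in a form of skeletal ciliopathy, was not called (0.10 ± 0.07), and its CPM was lower in rod-like cells in 8 of 8 libraries.

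IFT-A members rose in 5 of 6 cases. IFT122, a core IFT-A subunit, showed the largest difference of any member at 2.73 ± 0.14 (adjusted p = 4.35e-15). Its rod-like levels ran from 84.4 to 228.1 CPM (median 128.4) and its bipolar-like levels from 16.8 to 35.4 CPM (median 24.2). The lowest rod-like library was thus above the highest bipolar-like library. IFT140, mutated in isolated retinitis pigmentosa as well as in skeletal ciliopathy, stood at 39.0 ± 2.5 CPM against 10.7 ± 1.3 CPM (2.11 ± 0.10, adjusted p = 5.87e-16). IFT43 had 106.6 ± 3.1 against 59.3 ± 3.1 CPM (1.11 ± 0.05, adjusted p = 6.26e-17). WDR35 and WDR19, also called IFT121 and IFT144, differed by 1.23 ± 0.08 and 1.07 ± 0.09. TTC21B, the retrograde subunit IFT139, was the exception. It was not called on the TMM scale (-0.14 ± 0.11) while its CPM was lower in rod-like cells in every library, 39.4 to 48.4 against 51.5 to 62.0 CPM.

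IFT122 carries a caution of annotation. The deposited feature could not be matched to a single RefSeq gene on Mmul_10, where 4 protein-coding genes share its product name. The longest of them, LOC703060, spans 96249 bases on the minus strand (chr2:146959712-147055960). Whether reads from these copies were shared with the IFT122 feature was not tested.

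All 3 motor genes were higher in rod-like cells. DYNC2H1, the heavy chain of the retrograde dynein-2 motor, reached 383.1 ± 21.2 CPM against 178.6 ± 16.1 CPM in bipolar-like cells (1.36 ± 0.10, adjusted p = 1.24e-12). KIF3B, a kinesin-2 motor subunit, was at 51.9 ± 4.3 against 24.6 ± 2.6 CPM (1.33 ± 0.11). Its partner KIF3A, which also moves cargo outside cilia, was nearly level at 103.1 ± 8.5 and 97.9 ± 5.5 CPM, and its difference of 0.33 ± 0.05 passed the test with overlapping libraries. Among all members KIF3A overlaps IL4, IFT74 overlaps LRRC19 and PLAA, IFT88 overlaps CRYL1, IFT140 overlaps TELO2 and TMEM204, and BBIP1 overlaps PDCD4, each protein-coding and on the opposite strand in RefSeq. On the same strand, genes not listed as protein-coding overlap IFT74 (LOC114672776 and LOC106993720), IFT43 (LOC106999491) and IFT172 (LOC114671973). Whether reads of overlapping genes were shared was not tested.

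BBSome subunits rose in 4 of 5 cases, with a median of 1.48. BBS9, the scaffold of the complex, had the lowest p of all members. Its rod-like levels were 353.8 to 458.5 CPM (median 404.4) and its bipolar-like levels 97.4 to 137.5 CPM (median 110.6), a difference of 2.10 ± 0.08 (adjusted p = 2.41e-17). TTC8, known as BBS8 and with a retina-specific exon in other mammals, stood at 176.5 ± 15.5 against 68.0 ± 10.6 CPM (1.63 ± 0.09). BBS4 and BBS7 differed by 1.48 ± 0.09 and 1.46 ± 0.09. BBIP1, the smallest subunit, was close to the floor of detection at 1.8 ± 0.3 and 1.5 ± 0.4 CPM and was not called (0.48 ± 0.26). BBS2, listed only by its identifier and therefore outside the rule, was higher by 1.01 ± 0.05.

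ARL6 is the small GTPase that brings the BBSome to membranes. It ranged from 237.1 to 311.2 CPM in rod-like cells (median 278.1) and from 345.9 to 455.7 CPM in bipolar-like cells (median 389.2). Every rod-like library lay below every bipolar-like library, and ARL6 was the only member called lower (-0.26 ± 0.09, adjusted p = 0.0150). The call was absent with only the 4 libraries labelled uninjected, without a low-count filter, with the unnamed rod clusters included, without the left NHP1 library and without the left mScarlet bleb. BBS10, which helps to assemble the BBSome, was higher by 0.52 ± 0.12 at 11.3 ± 1.5 against 9.4 ± 1.6 CPM.

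**Figure D2:**
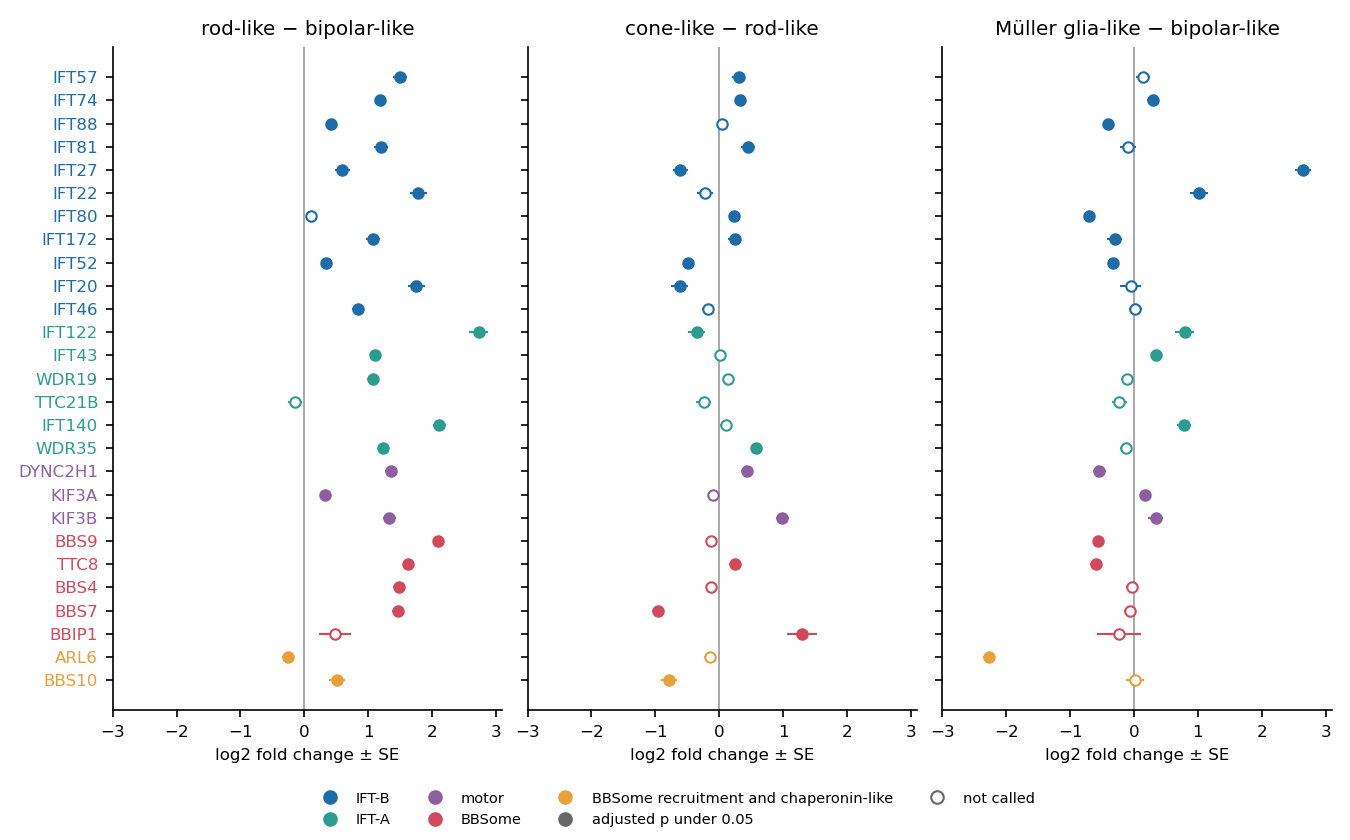
Log2 differences of the members between classes, with SE bars, for rod-like against bipolar-like, cone-like against rod-like and Müller glia-like against bipolar-like cells, from the edgeR fit of 8 libraries. The members lie mostly above 0 in the first contrast, with a median of 1.18, and on both sides of 0 in the other contrasts.

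The other genes of the pathway were taken from lists of ciliary genes outside the membership rule. Of 16 IFT and motor subunits, 12 were higher in rod-like than in bipolar-like cells and 2 lower, with the lowest p for the IFT-B subunits TTC30A (1.91 ± 0.10) and CLUAP1 (1.62 ± 0.08) and the dynein-2 subunit DYNC2I1 (1.29 ± 0.07). Of 19 transition zone genes, which form the gate of the cilium, 14 were higher and 0 lower, the lowest p falling to B9D1 (2.61 ± 0.08), AHI1 (3.48 ± 0.13) and TCTN2 (1.82 ± 0.07). Of 17 adaptors and cargo-routing genes 11 were higher and 3 lower, among them RP2 at 2.16 ± 0.11 and the ciliary kinase MAK at 3.63 ± 0.19. BBSome chaperones and regulators were higher in 7 of 10 cases and lower in 3, CCDC28B being highest at 2.50 ± 0.13. Of 7 transcription factors of the RFX and FOXJ1 group, only some of which drive ciliary genes, 4 were higher and 3 lower (RFX4, RFX5 and RFX7).

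RFX factors bind the X-box, a degenerate motif of a pair of arms, searched here on both strands in a strict form that reads GTTNCC and GGNAAC with 1 to 3 bases between them. Of 26 members with a single RefSeq gene, 0 held this strict pair from 250 bases before to 50 bases after the gene start, and 109 of 20787 protein-coding promoters did (0.524%). With the second arm loosened to NGNAAC, a form chosen after the windows were seen, IFT20 and IFT57 held the pair (2 of 26, 7.69%), as did 242 of the 20787 (1.16%). Other forms of the motif were not searched, so these counts do not say how many members carry an X-box. The single arm GTTGCC, on either strand, was present in 8 of the 26 (30.8%) and in 2618 of the 20787 (12.6%). These promoters are shown because most of their genes rose together in rod-like cells and because ARL6, which fell, also carries the arm. Windows of 30 bases from the RefSeq sequence of Mmul_10 follow for a subset of them, 5′ to 3′ on the gene's strand, with each arm in the window in capitals (GGCAAC where it lies on the opposite strand). The letters describe the window only and say nothing of binding.
IFT57 (chr2:167981329-167981358, plus strand): gatgcccgcttaGTTGCCtttagcaaccac
IFT46 (chr14:111638970-111638999, minus strand): ttatcaaccggcGTTGCCacccgcagccgc
IFT81 (chr11:109772710-109772739, plus strand): ggcctagcaaccGTTGCCaaggagctcgac
WDR35 (chr13:89015980-89016009, plus strand): GGCAACatcgcgGTTGCCagggcgacggga
DYNC2H1 (chr14:96375945-96375974, plus strand): gtgccccgggaaGGCAACgtccaccgcgcg
ARL6 (chr2:178177268-178177297, minus strand): catctcgcagtcGTTGCCaccacgctacgc

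Cones and rods were compared to see whether the shared machinery was set alike in both photoreceptors. Of the 27 members, 10 were higher in cone-like cells, 6 were lower and 11 were not called, with a median log2 difference of 0.01. Over all genes 61% were called, 27.9% higher and 33.2% lower, and the median was -0.10. The TMM scale lay 0.13 above plain CPM, on which 11 rather than 14 members had a positive difference, IFT43, IFT88 and IFT140 changing sign. The direction was mixed within every group of more than 3 members. In the IFT-B complex 5 were higher and 3 lower, in IFT-A 1 and 1, and in the BBSome 2 and 1.

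KIF3B was the clearest gain. It ran from 65.2 to 106.7 CPM in cone-like cells (median 97.0) and from 46.5 to 56.7 CPM in rod-like cells (median 52.0), a log2 difference of 0.99 ± 0.10 (adjusted p = 6.27e-09), and the libraries did not overlap. It was the only member whose cone-like values all lay above the rod-like ones (3.70% of members, 7.17% of genes with a UMI in any of the 4 classes). WDR35 rose by 0.57 ± 0.08 and DYNC2H1 by 0.43 ± 0.09, each higher in 7 of 8 libraries. BBIP1 rose by 1.29 ± 0.24 from a low level, 4.1 ± 2.1 against 1.8 ± 0.3 CPM.

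BBS7, part of the BBSome core, fell most, from 67.4 to 86.9 CPM in rod-like cells (median 80.8) to 24.1 to 50.7 CPM in cone-like cells (median 36.5). No cone-like library reached the rod-like range, and the difference was -0.96 ± 0.09 (adjusted p = 6.29e-10). IFT52 (-0.48 ± 0.07), IFT27 (-0.60 ± 0.12) and IFT20 (-0.62 ± 0.13) fell as well with no overlap between classes, as did BBS10 (-0.78 ± 0.13) with overlap. In 5 members (18.5%), IFT22 among them although it was not called, the cone-like values all lay below the rod-like ones. The same held for 13.1% of the genes with a UMI in any of the 4 classes. That base includes genes below the low-count filter, so the shares are not on equal terms. IFT122 was lower in cone-like cells by -0.35 ± 0.13 (adjusted p = 0.0243), at 98.8 ± 9.3 against 144.5 ± 53.9 CPM. In the right and left uninjected areas of NHP2 the classes were nearly level, with 95.8 and 101.4 CPM in cone-like and 97.7 and 102.2 CPM in rod-like cells, whereas the mScarlet blebs had 107.4 and 99.5 CPM in cone-like and 207.9 and 228.1 CPM in rod-like cells. IFT81 was higher by 0.45 ± 0.11 and IFT172 by 0.25 ± 0.10. The other members called higher were IFT74 (0.32 ± 0.08), IFT57 (0.31 ± 0.10), TTC8 (0.25 ± 0.09) and IFT80 (0.24 ± 0.07). IFT46 (-0.18 ± 0.09), IFT43 (0.01 ± 0.05), IFT88 (0.04 ± 0.07), IFT140 (0.11 ± 0.09) and BBS9 (-0.13 ± 0.08) were not called. Of the lists outside the rule, IFT and motor subunits were higher in 2 and lower in 7 of 16 cases, adaptors in 4 and 8 of 17, transition zone genes in 7 and 5 of 19, BBSome regulators in 3 and 2 of 10 and transcription factors in 4 and 2 of 7. The member counts moved with the setting: 9 members were called with only the libraries labelled uninjected (5 higher), and with the unnamed rod clusters counted as rods 5 rather than 10 members were higher among 16 called. The shares over all genes under these settings are not given here, so the counts do not say whether the members moved apart from other genes.

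Müller glia, which have no outer segment, served with bipolar cells as the non-photoreceptor comparison. The class held 3696 cells, and a further 3533 cells in 2 clusters that scored highest for Müller glia stayed unnamed because no marker of the class was among their 10 leading genes. Of the 27 members 8 were higher in Müller glia-like cells, 8 lower and 11 not called, where 78.8% of all genes were called, 39.9% higher and 38.8% lower. The median difference was -0.06 on the TMM scale, which lay 0.35 above plain CPM here. On plain CPM the median was -0.42, and 6 members changed sign between the scales. Of these, KIF3A (0.18 ± 0.05), KIF3B (0.34 ± 0.12) and IFT74 (0.29 ± 0.08) were among the 8 called higher. Their plain CPM was higher in glia in only 2, 5 and 4 of 8 libraries. With plain CPM, 1 member lay wholly above in all libraries and 8 wholly below. So did 10.3% and 21.4% of the genes with a UMI in any of the 4 classes, a base that includes genes below the low-count filter.

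IFT27, a small GTPase of IFT-B that also takes part in the removal of the BBSome from cilia, stood out in glia. Müller glia-like levels were 153.8 to 363.5 CPM (median 237.5) against 39.1 to 54.7 CPM in bipolar-like cells (median 51.0). All 8 glial libraries were above all bipolar-like libraries, the difference being 2.64 ± 0.12 (adjusted p = 4.42e-16), and free RNA held 20.1 to 68.4 CPM. ARL6 showed the reverse, at 48.0 to 78.4 CPM in glia (median 64.9) against 345.9 to 455.7 CPM in bipolar-like cells, a difference of -2.27 ± 0.10 (adjusted p = 1.19e-16). Free RNA held 77.0 to 228.7 CPM of ARL6, above most glial values. Both kept these directions on plain CPM, in 8 of 8 libraries each, also with the unnamed Müller glia clusters included, when IFT27 was at 246.5 ± 62.1 and ARL6 at 63.4 ± 7.6 CPM. With those clusters 3 rather than 2 members were higher than in bipolar-like cells in 8 of 8 libraries on plain CPM, and 14 rather than 11 lower. This was a description without a refit, added after the data were seen.

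Among the remaining members IFT22 (1.01 ± 0.14), IFT122 (0.79 ± 0.15), IFT140 (0.78 ± 0.11) and IFT43 (0.34 ± 0.05) were higher in glia, although IFT43 was level on plain CPM with 59.4 ± 5.0 and 59.3 ± 3.1 CPM. IFT80 (-0.71 ± 0.08), TTC8 (-0.59 ± 0.10), BBS9 (-0.56 ± 0.08), DYNC2H1 (-0.54 ± 0.10) and IFT88 (-0.40 ± 0.07) were lower in 8 of 8 libraries. IFT52 (-0.33 ± 0.08) and IFT172 (-0.30 ± 0.12) were lower as well, while IFT81 (-0.09 ± 0.12) and IFT46 (0.02 ± 0.10) were not called. The BBSome subunits BBS4 (-0.03 ± 0.09) and BBS7 (-0.06 ± 0.10) were not called. In the IFT and motor genes outside the rule, 9 of 16 were higher and 6 lower, with DYNLT1 at 3.0 ± 0.11 and HSPB11, the IFT-B subunit IFT25 that pairs with IFT27, at 2.09 ± 0.10.

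Within NHP2, the treated areas were compared with uninjected retina to ask whether vector delivery altered the members. In rod-like cells, 0 of 27 members were called in any of the 3 comparisons by edgeR at an adjusted p under 0.05. The called share over all genes was 0.369% for the mScarlet bleb against uninjected retina (0.291% higher and 0.078% lower), 0% for the hRPGR bleb and 0% between the blebs. At an unadjusted p under 0.05 the numbers were 6, 3 and 2 members, and 2505, 509 and 928 of 14098 genes. DESeq2 called 2, 0 and 0 members, and 920, 51 and 100 genes. The median log2 difference of the members was -0.01 for the mScarlet bleb and 0.01 for the hRPGR bleb. Both blebs were set against the same uninjected libraries. No gene of the pathway lists outside the rule was called in these or the other area comparisons.

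IFT122 was the member nearest to the threshold. In rod-like cells it was at 97.7 and 102.2 CPM in the right and left uninjected areas and at 179.2 and 127.4 CPM in the right and left hRPGR blebs. In the right and left mScarlet blebs it was at 207.9 and 228.1 CPM. The right and left NHP1 areas were at 84.4 and 129.4 CPM. All 4 bleb values lay above both uninjected values of NHP2 and above the right NHP1 value, while the left hRPGR value lay below the left NHP1 value. Rod-like cells of that left NHP1 library held 582 CPM of the RPE65 transgene, against 0.12 CPM in the right one.

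For IFT122 the log2 difference was 1.07 ± 0.15 for the mScarlet bleb (adjusted p = 0.0538), 0.58 ± 0.15 for the hRPGR bleb (adjusted p = 0.999) and 0.49 ± 0.15 between the blebs (adjusted p = 0.70, all edgeR). DESeq2 gave an adjusted p of 3.80e-09 for the mScarlet bleb, and the edgeR value ranged from 0.0017 to 0.477 over the other alternatives. In cone-like cells the mScarlet difference was -0.08 ± 0.11, and in bipolar-like cells it was 0.43 ± 0.23.

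Markers of rods and of other classes moved in the same rod-like sums, none of them called. For the mScarlet bleb all 10 rod markers had a negative log2 difference (median -0.43), and the summed rod markers were at 37556 and 36686 CPM in the right and left blebs against 53200 and 45437 CPM in the uninjected areas. The 9 cone markers were all negative (median -2.91), at 24.5 and 11.1 CPM together against 35.8 and 246.4 CPM. RPE markers had a median of -2.03 over 8 tested, although all 10 together were at 463.8 and 520.5 CPM against 494.4 and 544.4 CPM. Myeloid markers had a median of 1.26 over 8 tested, with 11 and 13.9 CPM for the 12 of the list against 5.3 and 8.0 CPM. Plasma cell markers had a median of 1.62 over 3 tested, all positive, with 228.5 and 287.5 CPM for the 7 of the list against 90.9 and 101.0 CPM, and T/NK markers had 98.0 and 93.5 CPM for 12 genes against 49.6 and 56.8 CPM (median 0.51 over 4 tested). Amacrine markers were negative in 10 of 10 (median -1.29), ganglion markers in 7 of 8 (-1.58), Müller glia markers in 11 of 12 (-0.76) and horizontal markers in 4 of 4 (-0.64). The medians of the bipolar, astrocyte, vascular and B cell lists were 0.08, -0.38, -0.10 and 0.02. The vascular median covers 4 tested genes, while all 10 of the list together were at 1541 and 1514 CPM against 1127 and 1308 CPM. Of all the marker lists MS4A1, a B cell marker, was the only gene at 0 in all NHP2 libraries. For the hRPGR bleb the medians were -0.16 for rod, -1.03 for cone, -1.59 for RPE and 1.84 for myeloid markers, with none called. The right hRPGR bleb had 26.8 CPM of myeloid and 35472 CPM of rod markers, and the left had 6.4 and 49517 CPM. The part of these markers in the IFT122 differences was not tested.

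**Figure D3:**
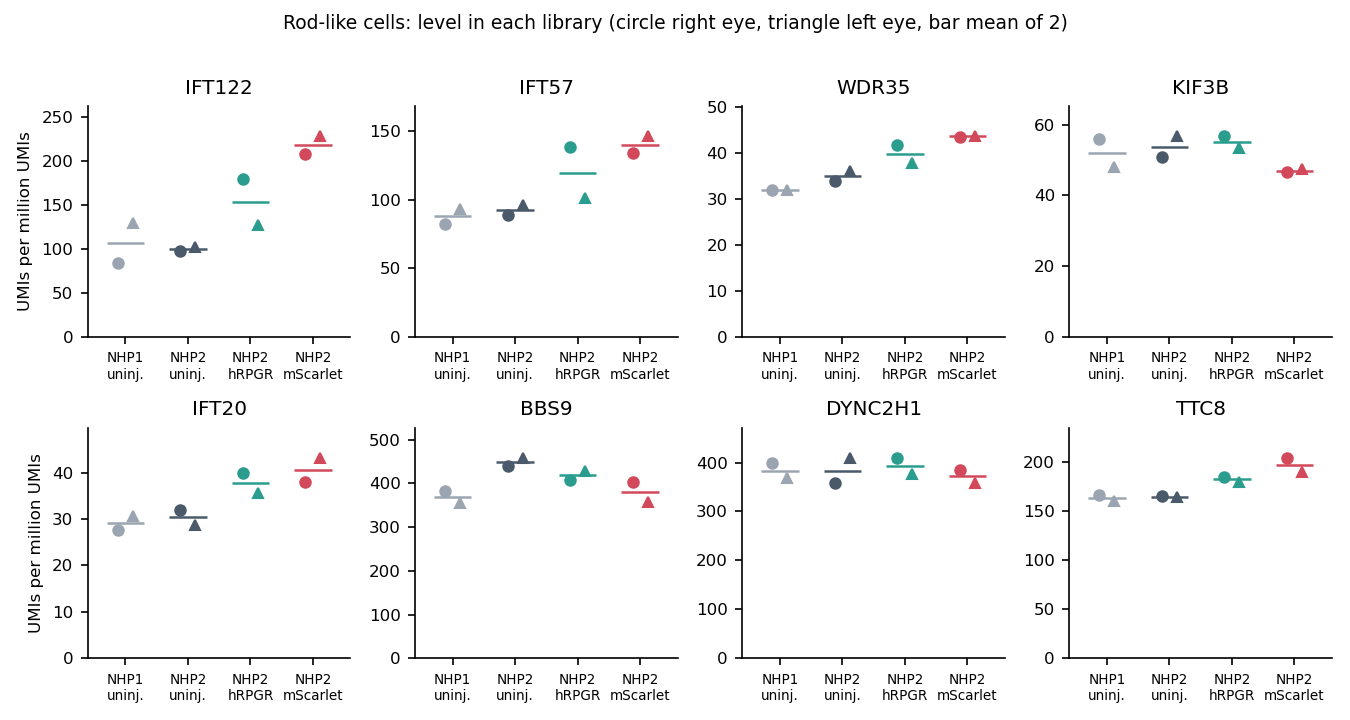
Level (CPM) of 8 members in rod-like cells of each library, with each point 1 library of a group and eye. IFT122 and IFT57 lie higher in the mScarlet blebs than in the uninjected areas of NHP2, while DYNC2H1 shows no such step.

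IFT57 followed at 89.2 and 96.3 CPM in the right and left uninjected areas, 138.4 and 101.2 CPM in the hRPGR blebs and 133.9 and 146.4 CPM in the mScarlet blebs. Again the left hRPGR bleb was nearest to the uninjected pair. The mScarlet difference was 0.54 ± 0.14 (adjusted p = 0.130), with DESeq2 giving 0.00993. WDR35 had a difference of 0.27 ± 0.07 (adjusted p = 0.15), KIF3B of -0.24 ± 0.07 (0.162), IFT20 of 0.36 ± 0.11 (0.183) and BBS9 of -0.29 ± 0.11 (0.255). The WDR35 difference became -0.06 ± 0.14 with the unnamed rod clusters counted as rods.

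Rod-like cells of different areas fell into different clusters, and the levels moved with them. Clusters 0 and 5 held 63.5% and 33.5% of the right and 65.2% and 19.1% of the left uninjected rod-like cells of NHP2, whereas clusters 2, 3 and 11 held most of those of the mScarlet blebs and of the right hRPGR bleb. The left hRPGR bleb was split, with 43.2% in cluster 0, 28.5% in cluster 5, 17.0% in cluster 2 and 8.77% in cluster 3. Within that library IFT122 was at 118.3 CPM in cluster 0 and at 189.7 CPM in cluster 2. In cluster 0 the right and left uninjected areas had 104.9 and 107.2 CPM, and in cluster 2 the other bleb libraries had 178.3 to 187.1 CPM. In clusters 0 and 2 IFT122 thus differed less between libraries than between the clusters. In cluster 3 it was at 124.1 CPM in the right and 132.2 CPM in the left hRPGR bleb, and at 129.1 CPM in the right and 182.5 CPM in the left mScarlet bleb, so that the left mScarlet value stood apart from the others. Cluster 11 had the highest values, 282.1 CPM in the right hRPGR bleb and 284.6 and 276.1 CPM in the right and left mScarlet blebs, and held 25.1% and 34.6% of the rod-like cells of the mScarlet blebs against 0% and 0.215% of those of the uninjected areas. Cluster 5 had low values in NHP2, 66.9 and 55.6 CPM in the right and left uninjected areas and 66.3 CPM in the left hRPGR bleb. NHP1 rods lay mainly in clusters 9, 10, 14 and 15.

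BBS9 separated the clusters in another way. It was at 517.0 to 536.0 CPM in cluster 0 and at 459.7 to 512.8 CPM in cluster 2. In cluster 5 of the 3 NHP2 libraries it was at 60.3 to 73.3 CPM, and in cluster 3 at 62.3 to 74.1 CPM. These values lay below the bipolar-like range of 97.4 to 137.5 CPM, as did cluster 15 of the right NHP1 library at 84.1 CPM, while cluster 5 of that library lay within it at 101.5 CPM. The clusters of low BBS9 were also shallower than clusters 0 and 2, with mitochondrial shares on either side of theirs. Clusters 3, 5 and 15 had median UMIs of 3492, 3420 and 3989 a cell and median mitochondrial shares of 1.67%, 1.90% and 1.45%, against 7865 and 7952 UMIs and 0.818% and 0.740% in clusters 0 and 2. Cluster 10 was low in BBS9 as well, at 93.3 CPM in the left uninjected area, 134.5 CPM in the right hRPGR bleb and 100.8 CPM in the left NHP1 area, with a median of 1750 UMIs but a mitochondrial share of 0.554%, below that of clusters 0 and 2. Clusters 34 and 43 were shallow too, at 2170 and 2220 UMIs, with BBS9 at 277.0 to 406.9 CPM. The part of depth and mitochondrial share in the BBS9 levels was not tested. The members were left out of the variable genes used for clustering, so the clusters were not drawn on BBS9 itself.

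In cone-like cells 0 members were called for the mScarlet bleb (1.31% of genes, 0.994% higher and 0.32% lower) and 0 for the hRPGR bleb (0.0355%), with 3 and 1 members at an unadjusted p under 0.05 (1930 and 862 of 11265 genes) and 0 called by DESeq2 in both (288 and 45 genes). BBS9 was nearest for mScarlet, with 324.5 and 297.8 CPM in the right and left blebs against 365.9 and 356.0 CPM in the uninjected areas (-0.37 ± 0.11, adjusted p = 0.153). IFT57 gave 0.25 ± 0.10 for mScarlet and 0.26 ± 0.10 for hRPGR (adjusted p = 0.270 and 0.632). In bipolar-like cells 0 members were called for mScarlet (0.679% of genes, 0.578% higher and 0.1% lower) and 0 for hRPGR (0%), with 1 and 0 members at an unadjusted p under 0.05 (1386 and 446 of 12965 genes) and 0 by DESeq2 (98 and 12 genes). IFT88 was nearest, at 96.9 and 98.3 CPM in the mScarlet blebs against 78.2 and 82.1 CPM (0.28 ± 0.10, adjusted p = 0.329).

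**Figure D4:**
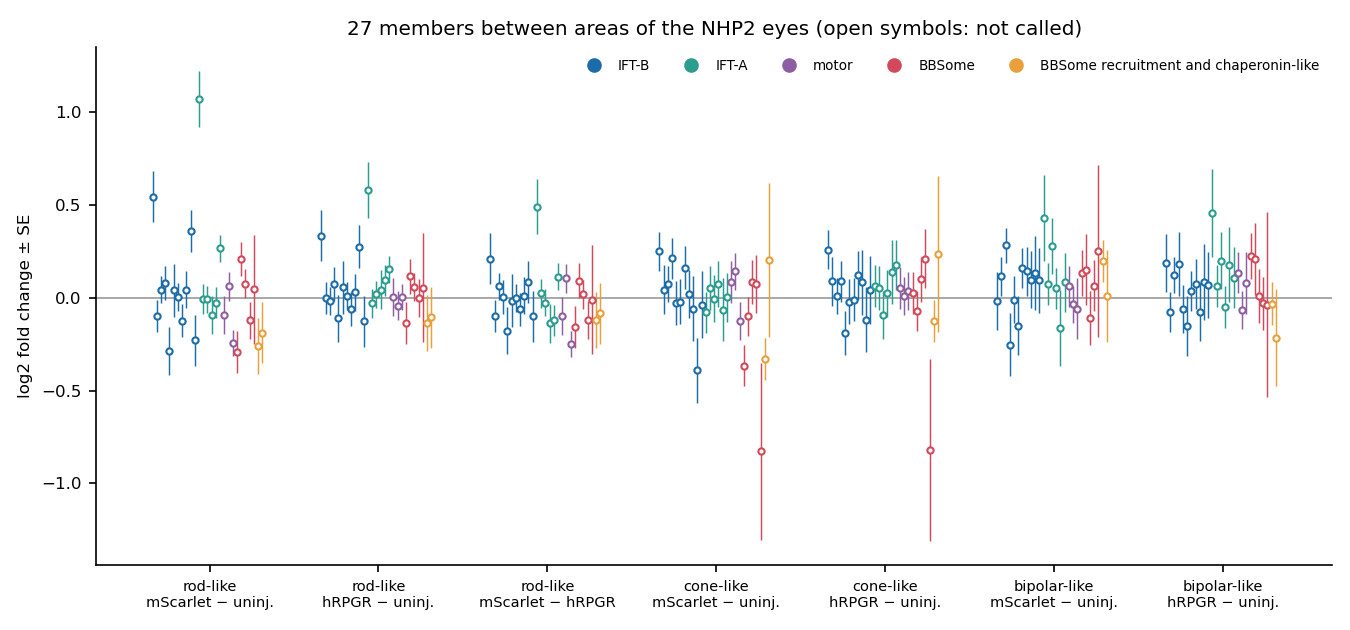
Log2 differences of the members between areas of NHP2 in rod-like, cone-like and bipolar-like cells, with SE bars, from edgeR fits of 6 libraries. No member passed an adjusted p of 0.05, and IFT122 in rod-like cells lies farthest above 0 at 1.07 for mScarlet.

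A large set of 25481 cells in 11 clusters scored highest for rod markers but was left without a class name. Of these, 24164 cells lay in 7 clusters with a median mitochondrial share under 0.2% of UMIs. Of the 7 only cluster 1, with 5352 cells, met the rest of the naming rule. The others had no rod marker among their 10 leading genes or a haemoglobin gene among the 3 leading genes. The fits without a mitochondrial minimum therefore added only cluster 1 to the rod-like cells. The remaining 1317 cells lay in 4 clusters that missed only another part of the rule and had medians up to 0.749%. In these 4, clusters 28, 40, 46 and 55 of 692, 388, 217 and 20 cells, the rod score was not always clear. It was 8.55, 1.03, 1.29 and 1.64 times that of the next class, which was amacrine in cluster 40 and cone in cluster 46. Not all cells of the set need therefore be rods. By library the median mitochondrial share over the whole set was 0.0970% to 0.183%. It made up 38.6% and 28.6% of the cells of the right and left NHP1 areas, 22.5% and 36.8% of the uninjected areas of NHP2, 39.3% and 28.3% of the hRPGR blebs and 24.7% and 24.1% of the mScarlet blebs. Summed member levels in these clusters were 4106 ± 412 CPM, above the 2696 ± 116 CPM of rod-like cells. Of the 27 members 20 were higher than in rod-like cells in 8 of 8 libraries and 6 were lower in 8 of 8, with a median log2 ratio of 0.46. Those shares were 74.1% and 22.2% of the members, against 27.2% and 7.79% of the 23399 genes with a UMI in the rod clusters. Many of the 23399 were too low for the filter of the tests. Since the clusters were set apart on these cells' own RNA, this is a description without a test.

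Genomic span was set beside these ratios. BBS9, which covers 508006 bases, had the highest log2 ratio (1.06), followed by WDR19 (0.77), TTC8 (0.73) and IFT88 (0.71). IFT22, which covers 7486 bases, had the lowest (-0.70), with IFT27 at -0.65, BBIP1 at -0.38 and IFT46 at -0.35. Some members broke the order, KIF3B (58399 bases) lying at -0.33 and lower in 8 of 8 libraries, ARL6 (37868 bases) at 0.69, and BBS10, the shortest at 3315 bases, at only -0.24. Across 26 genes the ratio and the span went together with a Spearman rho of 0.696 and a Pearson r of 0.797 on log10 span. For the rod-like against bipolar-like difference these were 0.092 and 0.129. Both are descriptions across genes, which share the same libraries and are not independent replicates.

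**Figure D5:**
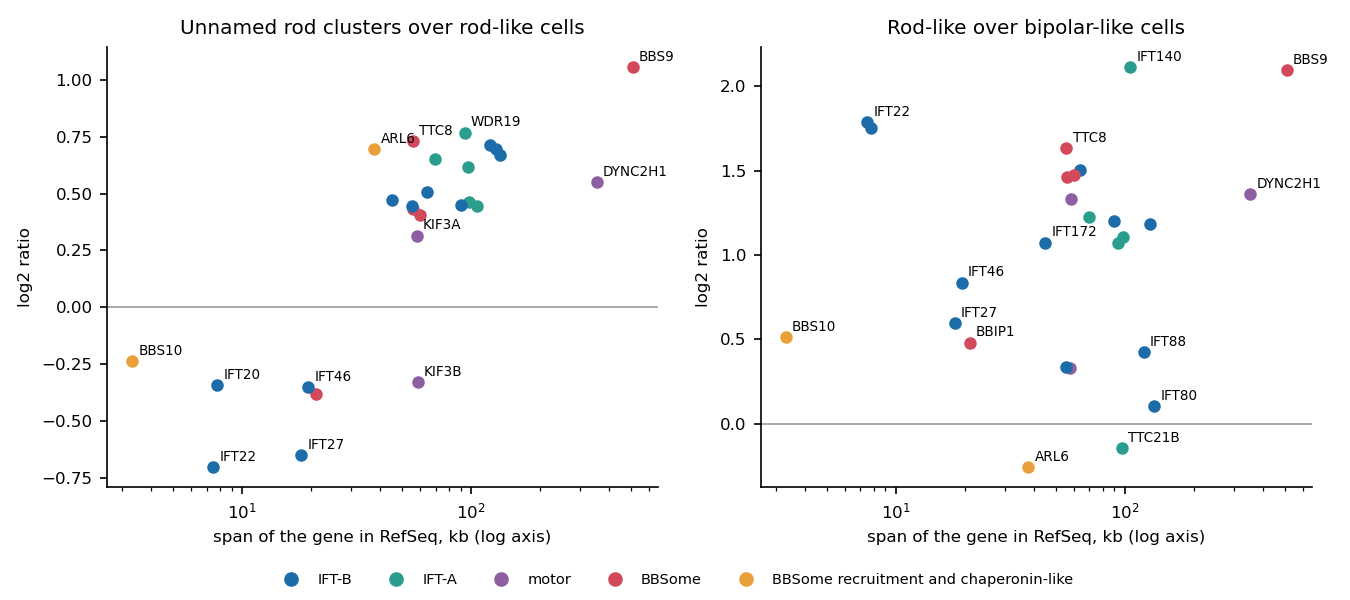
Log2 ratio of the unnamed rod clusters over rod-like cells against genomic span (bases, log axis) for 26 members, with the rod-like against bipolar-like difference beside it. Points are genes. The first quantity tends to climb with span, from IFT22 at -0.70 to BBS9 at 1.06, with KIF3B, ARL6 and BBS10 off that order, and the second shows no such order.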

How the data were processed

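The deposited matrices hold UMI counts for each gene in each barcode, raw and unnormalized per the file headers. The headers of the matrices name Cell Ranger 8.0.1, and the study gives Mmul_10 extended by the transgene sequences as the reference. Strand and multimapping settings were not given in the sources used here.

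A barcode counted as a cell from 1500 UMIs and 300 genes on, if mitochondrial UMIs did not exceed 20%. Doublets were the highest Scrublet scores, 0.8% per 1000 cells (9.37% of cells), since the automatic threshold marked 0% to 4.62% a library. Cells were clustered with scanpy 1.11.5 (3000 variable genes without the members and pathway lists, 40 components, resolution 2) into 56 clusters, named from markers of 14 classes. A name needed 3 markers raised 2-fold, a score 2 times that of the next class, at least 1 own marker and no more markers of another class among the 10 leading genes, and no haemoglobin gene among the 3 leading genes. Rod and cone clusters of a median mitochondrial share under 0.2% stayed unnamed. These thresholds were set after seeing the clusters, and differences from the study may come from the rebuilt names.

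UMIs were summed per library and class and tested with edgeR 4.0.16 (TMM, quasi-likelihood F test, R 4.3.3), all genes together, after a low-count filter that all 27 members passed in each of the 10 comparisons, with library as a block between classes and none between areas. DESeq2 1.42.0, other size factors, filters, class definitions, the eye as a block and each library left out were alternatives. The fitting code was also run on simulated counts with known differences, as a check of the code only. Fewer cells of a type and less RNA per cell cannot be told apart within a summed class.

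The members and lists were chosen with earlier results of these data known. Named genes are the called members, at most 10 by lowest p, or else the members of lowest p up to 3, a set of 10 members by level, and from each pathway list at most 3 genes of lowest p. ARL6, BBS10, IFT27, IFT22, IFT20, IFT57, IFT80, TTC21B, WDR19 and other members beyond these were named so that each member appears at least once, though not in every comparison.

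Areas with the same replicate number come from the same eye by the labels. Across genes, same-eye deviations correlated at -0.495, 0.198 and -0.200 in rod-like cells, -0.190, -0.106 and 0.224 in cone-like cells and -0.171, 0.0726 and -0.0733 in bipolar-like cells (uninjected with hRPGR, uninjected with mScarlet, hRPGR with mScarlet). Gene names came from the files, and for 521 features, BBS2 among them, from a gene table. Positions and promoter sequences are RefSeq's on Mmul_10.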

Additional observations from a re-analysis of the deposited data

Results flagged for a closer look

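The following differences between area effects were picked out because both eyes of NHP2 moved one way in 1 class and the opposite way in another. All 27 members were screened in rod-like, cone-like and bipolar-like cells, for both blebs. Signs can oppose in this way by chance, and how often they did so over all genes was not counted. The list therefore does not show more opposite effects than any other genes would give. The values are log2 ratios of CPM with 1 CPM added, right eye first, and none of these differences was tested.

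Between mScarlet bleb and uninjected area, BBIP1 gave -0.59 and -0.54 in cone-like and 0.24 and 0.10 in bipolar-like cells, a gap of -0.7338 that rests on 6 to 31 UMIs a library in cone-like cells. IFT20 gave 0.24 and 0.57 in rod-like and -0.14 and -0.40 in cone-like cells, a gap of 0.6723. ARL6 differed by -0.17 and -0.24 in rod-like cells, by -0.09 and -0.27 in cone-like cells and by 0.24 and 0.17 in bipolar-like cells. The rod-like effect was -0.4064 relative to the bipolar-like one, and the cone-like effect -0.3859. BBS9 gave -0.13 and -0.36 in rod-like cells, -0.17 and -0.26 in cone-like cells and 0.19 and 0.08 in bipolar-like cells. Relative to bipolar-like cells this was -0.3771 for rod-like and -0.35 for cone-like cells. IFT27 gave -0.23 and -0.23 in rod-like and 0.18 and 0.05 in cone-like cells, a gap of -0.344.

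Smaller gaps of the same comparison were those of KIF3A (0.3239 between cone-like and bipolar-like and 0.1447 between rod-like and bipolar-like cells), IFT74 (-0.247 between rod-like and cone-like and -0.1636 between rod-like and bipolar-like cells) and IFT46 (-0.2411 between rod-like and bipolar-like cells).

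Between hRPGR bleb and uninjected area, IFT20 gave 0.31 and 0.30 in rod-like and -0.11 and -0.01 in cone-like cells, a gap of 0.3675. WDR19 gave -0.03 and -0.05 in cone-like and 0.32 and 0.08 in bipolar-like cells, a gap of -0.242. For IFT172 the gap was -0.1984 between rod-like and cone-like and -0.09702 between rod-like and bipolar-like cells.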

How the results depend on the processing

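Of 139 alternative values for the counts and levels, 128 stayed within 1.5 times the main count or 1 SD of the level. For rod-like cells of the mScarlet bleb against uninjected retina (0 members called), 1 member was called without a low-count filter, 1 in cells of at least 3000 UMIs, 1 without the mitochondrial minimum (each IFT122) and 2 by DESeq2. Leaving out 1 library gave 0 to 2, the 2 (IFT122 and IFT57) without either hRPGR bleb, right or left. For the hRPGR bleb this range was 0 to 1 (IFT122, without the left hRPGR bleb), and between blebs 0 to 1 (IFT122, without the right hRPGR bleb). In cone-like cells, mScarlet gave 1 without a low-count filter (BBS9, lower). Cone-like against rod-like calls fell from 16 to 9 with only the 4 libraries labelled uninjected, 2 of which held the transgene UMIs given above. The summed rod-like level was 3232 CPM with the unnamed rod clusters included. That setting turned WDR35 to -0.057 (mScarlet against uninjected) and -0.15 (mScarlet against hRPGR). Members called without 1 library were 23 to 24 (rod-like against bipolar-like), 14 to 17 (cone-like against rod-like) and 14 to 17 (Müller glia-like against bipolar-like), and 0 to 0 in the other comparisons. Members higher in cone-like than rod-like cells were 14 of 22 without the mitochondrial minimum, 6 of 15 without a low-count filter and 14 of 19 by DESeq2. Except for the DESeq2 area fits above, the numbers of all genes called under these settings are not given here. The counts therefore do not say whether the members moved apart from other genes. The cause of these changes was not tested.

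Pairing areas by eye (replicate block) left 0 members called in each area comparison. Over all genes it took mScarlet calls from 52 to 0 in rod-like, 148 to 77 in cone-like and 88 to 48 in bipolar-like cells. Class comparisons without the library block called 24, 16 and 16 members, with the share over all genes not given here. With the hRPGR areas swapped between eyes, tried because their deviations ran opposite, calls over all genes were 0 for rod-like cells against uninjected retina, 57 for rod-like cells between blebs, 11 for cone-like cells and 12 for bipolar-like cells, with 0 members. The swap and the fits without a mitochondrial minimum were chosen after seeing the data.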

Other observations

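KIF3A, the kinesin-2 subunit that was nearly level between rod-like and bipolar-like cells, stood at 296.3 ± 29.0 CPM in horizontal-like cells (SD, n = 8, range 253.0 to 345.7), 242.0 ± 35.8 CPM in amacrine-like cells and 225.5 ± 23.7 CPM in ganglion-like cells. Every one of these 24 values lay above the highest rod-like value of 114.9 CPM. These classes were not tested.

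IFT27 stood at 425.6 CPM in the few RPE-like cells of all libraries together (701 UMIs in 209 cells), with 164.4 to 545.2 CPM in the 7 libraries that held such cells. The right NHP1 library alone gave 84 of the 209 cells and 406 of the 701 UMIs. The pooled value stands beside 249.8 CPM in Müller glia-like and 62.7 CPM in rod-like cells pooled the same way. Myeloid-like and T/NK-like cells had low levels of most members. BBS9 was at 58.5 and 58.6 CPM there and DYNC2H1 at 61.0 and 24.8 CPM, pooled over the libraries.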
